A study of Mus musculus with 28 samples.

Results

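Hmgcs1 (ENSMUSG00000093930), Mvd (ENSMUSG00000006517), Fdft1 (ENSMUSG00000021273), Sqle (ENSMUSG00000022351), Lss (ENSMUSG00000033105), Cyp51 (ENSMUSG00000001467) and Dhcr7 (ENSMUSG00000058454) code for 7 enzymes of the cholesterol synthesis pathway. They were followed through RNA sequencing of mouse hippocampus. They were chosen by symbol among the 55487 gene IDs of each deposited count table, with earlier results of these data known. None of the 7 is an uptake gene, so they are called synthesis enzymes here and uptake genes are described after them. Polyadenylated RNA came from animals 9 months of age that had gone through behaviour tests, split into 2 cohorts of 4 genotypes, each with 3 libraries (24 altogether). In the Ripk1 cohort the genotypes were Ripk1D138N/D138N with 5xFAD (D138N 5xFAD), 5xFAD, Ripk1D138N/D138N (D138N) and WT. The Zbp1 cohort held Zbp1-/- with 5xFAD (KO 5xFAD), 5xFAD, Zbp1-/- (KO) and WT. Each mutant line was set beside WT animals from its own ancestry, so comparisons were made within a cohort. 5xFAD mice are a model of Alzheimer's disease in which mutant human transgenes are driven in neurons by the Thy1 promoter. D138N leaves RIPK1, a kinase of necroptosis and inflammation, without kinase activity, and ZBP1 is a sensor of nucleic acids in the Z form that can engage RIPK3. Another 4 libraries, 1 each, hold RNA bound by ZBP1 and its input from 5xFAD and from WT hippocampus.

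Cholesterol is made from acetyl-CoA through mevalonate, farnesyl diphosphate, squalene and lanosterol. The brain makes its own, since lipoproteins of the blood hardly cross the blood-brain barrier, and in the adult the glia, astrocytes above all, supply much of it to neurons in particles that carry apolipoprotein E. When sterol in the endoplasmic reticulum is low, SCAP escorts the transcription factor SREBP-2 to the Golgi, where it is cleaved, and its active part then turns on the enzymes of the pathway. INSIG1 holds SCAP back when sterol is ample.

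SREBP-2 binds the sterol regulatory element (SRE) next to sites for NF-Y and SP1, so the proximal promoters of the members were searched for these motifs. RefSeq promoters on build GRCm38.p6 (250 bases before to 50 bases after a start) matched 5 of the 7 members, with 7 starts in all, 3 of them for Dhcr7. Fdft1 and Sqle had no entry, so their promoters were not searched. The 4 members with a single start are shown, 250 bases up to the base before the start, 5′ to 3′ on the gene's strand. They span a gene that rose in both cohorts (Hmgcs1), the one with the largest change in the Ripk1 cohort (Mvd), and the pair not called by edgeR in either cohort (Lss and Cyp51). Capitals mark the SRE (TCACNCCAC) and NF-Y (CCAAT, or ATTGG on the other strand).
Hmgcs1, chr13:119690101-119690350, plus strand: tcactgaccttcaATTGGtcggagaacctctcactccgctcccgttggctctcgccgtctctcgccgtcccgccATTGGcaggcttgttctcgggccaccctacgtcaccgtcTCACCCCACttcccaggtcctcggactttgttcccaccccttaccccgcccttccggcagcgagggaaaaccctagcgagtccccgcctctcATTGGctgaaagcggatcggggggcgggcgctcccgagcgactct
Mvd, chr8:122443423-122443672, minus strand: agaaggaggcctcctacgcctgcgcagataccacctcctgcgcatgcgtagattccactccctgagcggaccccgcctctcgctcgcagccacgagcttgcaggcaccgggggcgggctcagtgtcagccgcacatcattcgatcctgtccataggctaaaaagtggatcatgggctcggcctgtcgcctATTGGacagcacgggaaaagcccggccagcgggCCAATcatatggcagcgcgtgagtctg
Lss, chr10:76531355-76531604, plus strand: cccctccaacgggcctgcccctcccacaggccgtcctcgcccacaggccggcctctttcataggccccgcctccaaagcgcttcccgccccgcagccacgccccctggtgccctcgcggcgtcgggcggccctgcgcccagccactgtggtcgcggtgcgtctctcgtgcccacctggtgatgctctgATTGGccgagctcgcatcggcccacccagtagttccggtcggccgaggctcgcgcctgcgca
Cyp51, chr5:4104698-4104947, minus strand: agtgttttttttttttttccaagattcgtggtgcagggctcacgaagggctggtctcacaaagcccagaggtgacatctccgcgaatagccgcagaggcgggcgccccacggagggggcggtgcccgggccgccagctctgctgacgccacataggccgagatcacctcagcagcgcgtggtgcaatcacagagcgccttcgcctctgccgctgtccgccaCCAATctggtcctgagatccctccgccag

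The Hmgcs1 promoter held the SRE letters once, at bases 137 to 129 before its start, and no other member promoter searched did. Of all 32851 promoters of that length 1.24% held the SRE letters. NF-Y letters stood in 5 of 7 member promoters (1 per start), against 37.4% of all promoters. SP1 letters (GGGCGG), also searched on both strands, stood in 6 of 7, against 35.7% of all promoters. These shares were not particular to the members. Of 11 promoters of other synthesis enzymes 9 held NF-Y letters, 9 SP1 letters and 0 the SRE. Of 12 promoters of genes of SREBP processing 5 held NF-Y letters, 9 SP1 letters and 0 the SRE. No match of one motif shared a base with a match of another. These matches describe letters in a window and show no binding.

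Total counts ranged between 16624325 and 44801371 for libraries of the Ripk1 cohort. The Zbp1-cohort libraries had 27144481 to 34640479, save for WT 1 with 8362348. The members had 150 counts (Mvd) to 11893 counts (Hmgcs1) per library, and all 7 passed the filter on low counts in both cohorts. In the Ripk1 cohort 5xFAD 1 stood apart: it was the smallest library, and the immediate early gene Fos reached 532 CPM there (CPM, counts relative to the library total), against 18.2 and 7.87 CPM in 5xFAD 2 and 3. Zbp1 reads numbered 11, 9 and 9 in KO 5xFAD and 52, 52 and 125 in 5xFAD, but 0, 0 and 11 in KO and 0, 12 and 3 in WT, so at this depth the counts did not separate KO from WT. D138N changes a residue and gene counts do not check it. Every listed marker of hippocampal neurons, astrocytes, oligodendrocytes and microglia was detected in every group. Choroid plexus markers varied widely inside each genotype (summed 49 to 4771 CPM over all libraries).

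In the Ripk1 cohort most of these 7 synthesis enzymes had higher RNA levels in 5xFAD than in WT hippocampus. The members were chosen with earlier results of these data known. The share of all genes set beside their counts is therefore no test of the set. By edgeR's quasi-likelihood test, with Benjamini-Hochberg adjustment over all genes and a threshold of 0.05, 5 of 7 members rose and none fell, where 8.11% of the 21376 genes tested rose. The folds ran from 1.24 (Dhcr7) to 2.05 (Mvd). The 5xFAD and WT libraries did not overlap for any of the 7 members, a separation upwards that 17.7% of all genes showed. The median log2 fold change over the 7 was 0.50, and over all genes tested 0.018. More cells of a type and more RNA per cell cannot be told apart in bulk tissue, nor can fewer cells and less RNA per cell. CPM is relative to the other RNA of the library.

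The early steps lead to isoprenoid units. Hmgcs1, the cytosolic synthase that makes HMG-CoA, had 382, 272 and 279.6 CPM in the 5xFAD libraries and 208, 194 and 205.5 CPM in WT. All 5xFAD libraries lay above all WT libraries, with 5xFAD 1 far above the other two. Its log2 fold change was 0.62 ± 0.11 (SE; adjusted p = 0.00237, edgeR). Mvd, the decarboxylase that yields isopentenyl diphosphate, had 36.25, 23.8 and 24.1 CPM in 5xFAD and 14.9, 11.3 and 14.7 CPM in WT. The 5xFAD values were again all higher, and the log2 fold change of 1.04 ± 0.18 was the largest among the members (adjusted p = 0.00194, edgeR).

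Squalene is made and oxidised next. Fdft1, squalene synthase, which commits farnesyl diphosphate to sterols, had 153, 116 and 115 CPM in 5xFAD and 78.3, 80.55 and 78.6 CPM in WT. The WT libraries were nearly equal, and the lowest 5xFAD library stood well above them. The log2 fold change was 0.69 ± 0.099 (adjusted p = 0.000496, edgeR). Sqle, the epoxidase that oxidises squalene and a rate-limiting enzyme of the pathway, had 107, 82.6 and 82.1 CPM in 5xFAD and 68.9, 60.8 and 62.2 CPM in WT, a log2 fold change of 0.50 ± 0.11 (adjusted p = 0.00778, edgeR). WT 1 was the highest WT library, and still lower than every 5xFAD library.

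Among the members, those of the sterol steps had the smallest log2 fold changes. This did not hold for every enzyme of those steps outside the members, as described below. Lss, which cyclises oxidised squalene to lanosterol, had 59.6, 51.8 and 56.1 CPM in 5xFAD and 49.3, 50.6 and 51.2 CPM in WT, and its log2 fold change of 0.15 ± 0.069 was not called (adjusted p = 0.167, edgeR). Cyp51, the demethylase of lanosterol, had 76.7, 65.5 and 66.4 CPM in 5xFAD and 61.2, 56.5 and 57.6 CPM in WT. The groups did not overlap, but the log2 fold change of 0.25 ± 0.083 just missed the threshold (adjusted p = 0.0567 in edgeR, 0.0419 in DESeq2). Dhcr7, the reductase whose product is cholesterol, had 49.3, 45.35 and 44.4 CPM in 5xFAD and 41.5, 33.6 and 37.3 CPM in WT, a log2 fold change of 0.31 ± 0.096 (adjusted p = 0.0433, edgeR). This call was the least stable of the 5: it held without WT 1 (adjusted p = 0.0326) and was lost without any other single library of the 2 genotypes (0.0567 to 0.164).

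**Figure D1:**
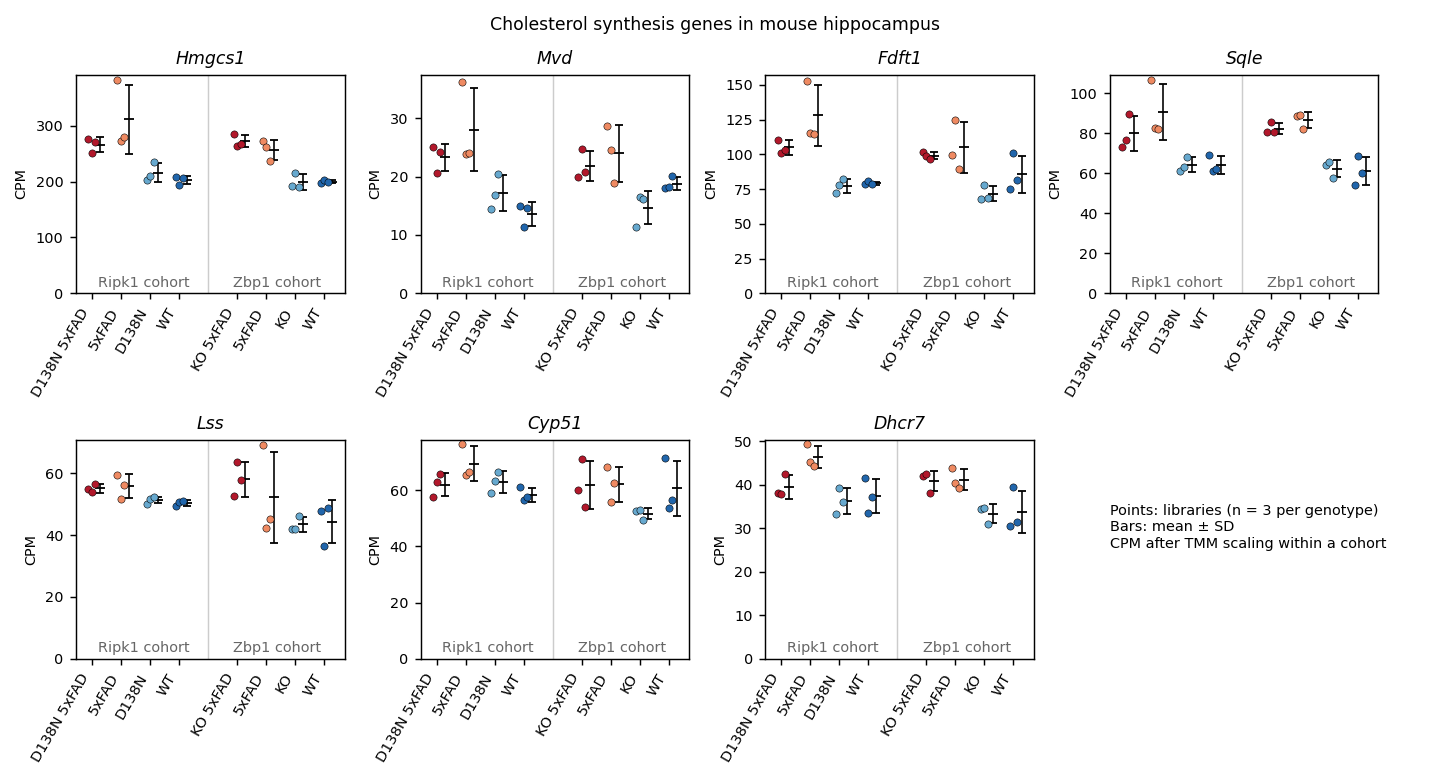
CPM after TMM scaling (linear y axes from 0, 1 panel per gene) in each library, with mean ± SD (n = 3) beside the points, for the 4 genotypes of each cohort. The 5xFAD points of the Ripk1 cohort lie above the WT points in every panel, with 5xFAD 1 highest each time (382 CPM for Hmgcs1).

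The library 5xFAD 1 had the highest CPM of the 5xFAD libraries of the Ripk1 cohort for 7 of 7 members. Without it, Hmgcs1 (log2 fold change 0.44, adjusted p = 0.00353), Mvd (0.81, 0.00701), Fdft1 (0.54, 0.000467) and Sqle (0.36, 0.0285) were still called by edgeR against WT, and Dhcr7 was not (0.26, 0.136).

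Of 13 further synthesis enzymes 6 rose in 5xFAD against WT of the Ripk1 cohort, none fell, and all 13 had positive log2 fold changes, with a median of 0.32. Nsdhl, a sterol dehydrogenase of the demethylation steps, had the largest called change, with 46, 33.6 and 32.35 CPM in 5xFAD and 21.1, 22.5 and 21.3 CPM in WT (log2 fold change 0.78 ± 0.12, adjusted p = 0.000782, edgeR). Acat2, the cytosolic thiolase that makes acetoacetyl-CoA, rose by 0.65 on the log2 scale. Msmo1, the sterol oxidase that acts after Cyp51, rose by 0.60, and Ebp, a sterol isomerase, by 0.56. The other called enzymes were Mvk and Pmvk, the kinases that act on mevalonate and its phosphate. Fdps, which makes farnesyl diphosphate, had a log2 fold change of 0.72 ± 0.31 and was not called.

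**Figure D2:**
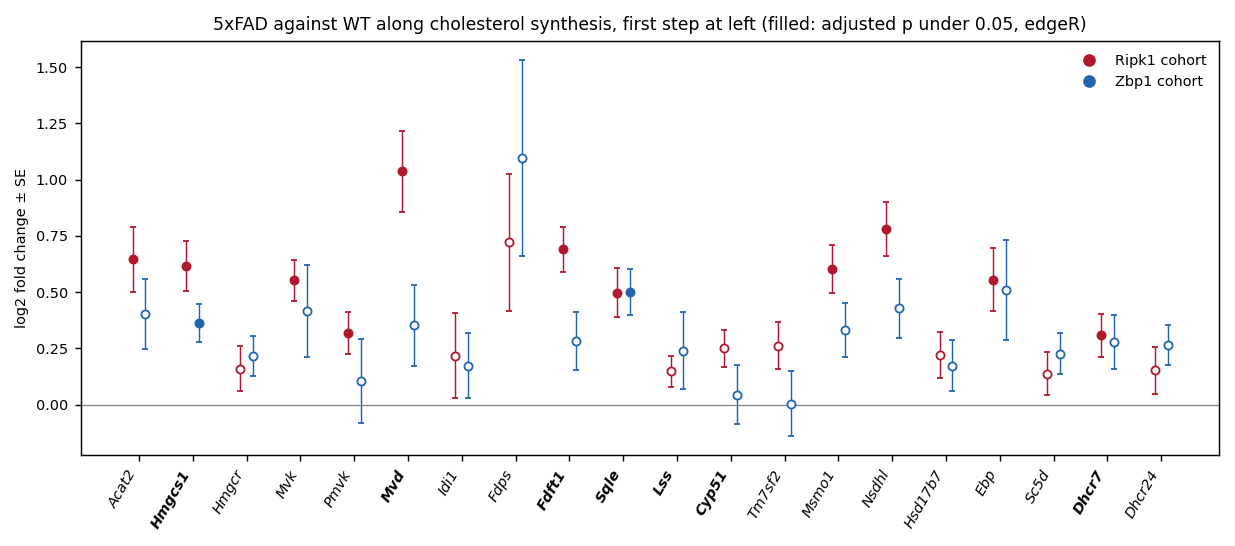
Log2 fold change ± SE (edgeR, y axis) of 5xFAD against WT for 20 enzymes in the order of their steps (x axis, members in bold), Ripk1 cohort beside Zbp1 cohort, filled where adjusted p is under 0.05. All points lie above 0, with Mvd highest in the Ripk1 cohort at 1.04 and 11 enzymes filled there against 2 in the Zbp1 cohort.

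In the Zbp1 cohort the rise in 5xFAD against WT was called for 2 of 7 members, Hmgcs1 and Sqle, where 3% of 21274 genes rose. Hmgcs1 had 273, 261 and 237.5 CPM in 5xFAD and 198, 203 and 199 CPM in WT, a log2 fold change of 0.36 ± 0.084 (adjusted p = 0.0272, edgeR). Sqle had 88.6, 88.9 and 82.1 CPM in 5xFAD and 54.3, 68.5 and 60.2 CPM in WT, a log2 fold change of 0.50 ± 0.10 (adjusted p = 0.0107, edgeR). For these 2 members the libraries did not overlap, against 8.28% of all genes, while the other 5 overlapped.

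The other members of the Zbp1 cohort had positive values that were not called. Mvd had 28.6, 24.6 and 18.9 CPM in 5xFAD and 18.1, 18.2 and 20.1 CPM in WT, with 5xFAD 3 inside the WT range (log2 fold change 0.35 ± 0.18). Fdft1 had 99.2, 125 and 89.7 CPM in 5xFAD and 75, 101 and 81.45 CPM in WT (log2 fold change 0.28 ± 0.13), where WT 2 exceeded 2 of the 5xFAD libraries. Lss had 69.3, 42.3 and 45.3 CPM in 5xFAD and 47.9, 36.4 and 48.9 CPM in WT, so that 5xFAD 1 alone lay above the WT range (log2 fold change 0.24 ± 0.17). Cyp51 was highest in WT 1, the shallowest library, with 68.2, 55.9 and 62.6 CPM in 5xFAD and 71.7, 53.65 and 56.6 CPM in WT (log2 fold change 0.043 ± 0.13). Dhcr7 had 43.9, 40.4 and 39.3 CPM in 5xFAD and 30.5, 39.4 and 31.5 CPM in WT, with 5xFAD 3 just under WT 2 (log2 fold change 0.28 ± 0.12). The median over the 7 members was 0.28, and over all genes -0.004.

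Both calls of the Zbp1 cohort rested on single libraries. Hmgcs1 and Sqle both missed the threshold without 5xFAD 1 (adjusted p = 0.134 and 0.0521), without WT 1 (0.0959 and 0.0555) and without WT 3 (0.102 and 0.0576), and without WT 2 Hmgcs1 did (0.0528). Neither was called when the 2 genotypes were fitted alone (0.257 and 0.139).
None of the 13 further enzymes was called by edgeR in this comparison (8 had an unadjusted p under 0.05, and DESeq2 called 1), and all 13 log2 fold changes were positive, with a median of 0.27.

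The 5xFAD effect itself was compared between cohorts in a fit of all 24 libraries. None of 7 members differed by edgeR (0% of 22565 genes did, 2 members had an unadjusted p under 0.05, and DESeq2 called 0). The differences, Ripk1 cohort minus Zbp1 cohort, ran from -0.10 ± 0.19 for Lss to 0.68 ± 0.26 for Mvd on the log2 scale (adjusted p = 0.444 for Mvd, edgeR). Their median was 0.20, but 0.071 without 5xFAD 1 of the Ripk1 cohort, 0.087 without WT 1 of the Zbp1 cohort and 0.12 without its 5xFAD 2, when 593 genes were called but no member. Mutant line, ancestry and any batch of a cohort cannot be told apart in this comparison.

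In the authors' deposited table of 5xFAD over WT in the Ripk1 cohort, Mvd had a log2 fold change of 1.03 with an adjusted p of 1.91e-05 and Fdft1 one of 0.68 with 3.79e-10. Lss was the member without an adjusted p under the threshold there, at 0.197. For the Zbp1 cohort the authors' deposited table gave Sqle 0.50 with 1.02e-05 and Hmgcs1 0.36 with 0.000483, and the other 5 members had adjusted p-values of 0.193 to 0.954.

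In mice with the RIPK1 kinase mutation the values of the 5xFAD effect were lower than on the WT background, a difference that was not called. D138N 5xFAD against D138N gave 1 of 7 members called, Fdft1, where 3.12% of genes rose, and 4 members had an unadjusted p under 0.05. Fdft1 had 103, 111 and 101 CPM in D138N 5xFAD and 72.2, 77.8 and 82 CPM in D138N (log2 fold change 0.44 ± 0.099, adjusted p = 0.0246, edgeR). That call held without D138N 3 (0.0493) and was lost without any other single library of the 2 genotypes (0.0547 to 0.11). Hmgcs1 had 270.4, 276 and 251 CPM in D138N 5xFAD and 202, 210 and 235 CPM in D138N (log2 fold change 0.30 ± 0.11, adjusted p = 0.198, edgeR). Sqle had 89.7, 73 and 76.7 CPM in D138N 5xFAD and 61.1, 63.2 and 68.2 CPM in D138N (log2 fold change 0.31 ± 0.11). The libraries of these 3 genes did not overlap, and neither did those of Mvd and Lss, 5 of 7 against 11.3% of all genes. Cyp51 and Dhcr7 overlapped, with log2 fold changes of -0.022 ± 0.083 and 0.12 ± 0.096. D138N 1 was the lowest of the D138N libraries for 7 of 7 members.

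Set directly against 5xFAD, D138N 5xFAD libraries had lower values for all 7 members, but none was called by edgeR (0.365% of genes were called, 2 members had an unadjusted p under 0.05, and DESeq2 called 0). Mvd had 24.3, 25 and 20.6 CPM in D138N 5xFAD and 36.25, 23.8 and 24.1 CPM in 5xFAD, so the groups overlapped (log2 fold change -0.26 ± 0.18). Fdft1 was -0.29 ± 0.099 on the log2 scale (adjusted p = 0.305, edgeR). Dhcr7 had 42.5, 38 and 37.8 CPM in D138N 5xFAD and 49.3, 45.35 and 44.4 CPM in 5xFAD (log2 fold change -0.23 ± 0.096). The share of all genes called rested on single libraries, since 673 genes were called without D138N 5xFAD 2 and 14 without D138N 5xFAD 3, against 78 with all, and no member was among those called. These 2 genes (Fdft1 and Dhcr7) did not overlap between the groups, a separation downwards that 7.73% of all genes showed. The median over the 7 was -0.23, against -0.008 over all genes, and moved to -0.053 without 5xFAD 1, when 6 of 7 were still negative. Without that library Hmgcs1 was at -0.053, Mvd at -0.039 and Lss at 0.032.

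The interaction, the 5xFAD effect on the D138N background minus that on the WT background, was negative for 7 of 7 members and called for none by edgeR (0.0281% of genes were called, 2 members had an unadjusted p under 0.05, and DESeq2 called 0). It ran from -0.60 ± 0.25 for Mvd (adjusted p = 0.656, edgeR) to -0.045 ± 0.097 for Lss. Its median was -0.25, and -0.14 without 5xFAD 1, when 6 of 7 were negative. D138N against WT called 0 of 7 members (0% of genes, no member with an unadjusted p under 0.05, none by DESeq2). The values there ran from -0.048 ± 0.096 for Dhcr7 to 0.34 ± 0.18 for Mvd, and Mvd had 14.5, 16.8 and 20.45 CPM in D138N and 14.9, 11.3 and 14.7 CPM in WT.

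In the Zbp1 knockout the members stood higher with 5xFAD in every library. KO 5xFAD against KO called 1 of 7, Hmgcs1, where 1.18% of genes rose, while the libraries did not overlap for 7 of 7 members, against 10.8% of all genes. Hmgcs1 had 284, 264 and 266 CPM in KO 5xFAD and 192, 215 and 190.1 CPM in KO (log2 fold change 0.45 ± 0.084, adjusted p = 0.0134, edgeR). Fdft1 had 102, 98.5 and 97 CPM in KO 5xFAD and 68.2, 78 and 68.9 CPM in KO (log2 fold change 0.47 ± 0.13, adjusted p = 0.149, edgeR). Sqle had 80.4, 85.3 and 80.8 CPM in KO 5xFAD and 64.15, 65.4 and 57.3 CPM in KO (log2 fold change 0.40 ± 0.10, adjusted p = 0.0855, edgeR). For all 3 the KO 5xFAD libraries were close together and clear of KO. Lss had 52.6, 63.9 and 57.7 CPM in KO 5xFAD and 42, 42.1 and 46.3 CPM in KO, and Mvd had 19.95, 24.7 and 20.9 CPM in KO 5xFAD and 11.4, 16.5 and 16.1 CPM in KO. Their log2 fold changes were 0.42 ± 0.17 and 0.58 ± 0.18, and those of Cyp51 and Dhcr7 0.26 ± 0.13 and 0.30 ± 0.12.

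How many members passed in KO 5xFAD against KO depended on the fit. DESeq2 called 3 (Hmgcs1, Sqle and Fdft1), and edgeR on these 2 genotypes alone called 5. Left-out libraries gave 0 or 1: Hmgcs1 was lost without KO 5xFAD 1 or 2 (adjusted p = 0.082 and 0.0566) and without KO 1 or 3 (0.117 and 0.105), and was called without KO 5xFAD 3 (0.0484) and KO 2 (0.0281).
None of 7 members was called by edgeR in KO 5xFAD against 5xFAD (0% of genes, no member with an unadjusted p under 0.05, none by DESeq2), where values ran from -0.14 ± 0.18 for Mvd to 0.15 ± 0.17 for Lss. That share of all genes depended on the fit. DESeq2 called 151 genes, the replicate block 41, edgeR without the filter 498 and edgeR without 5xFAD 3 82, no member among them. KO against WT also called 0 members (0% of genes, none at an unadjusted p under 0.05, none by DESeq2), from -0.36 ± 0.18 for Mvd to 0.025 ± 0.10 for Sqle. Mvd and Cyp51 did not overlap downwards between KO and WT, as 5.57% of genes did: Cyp51 had 52.7, 53.1 and 49.4 CPM in KO and 71.7, 53.65 and 56.6 CPM in WT. The interaction with KO called 0 of 7 as well (0% of genes, none at an unadjusted p under 0.05, none by DESeq2) and ran from -0.10 ± 0.14 for Sqle to 0.22 ± 0.25 for Mvd.

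**Figure D3:**
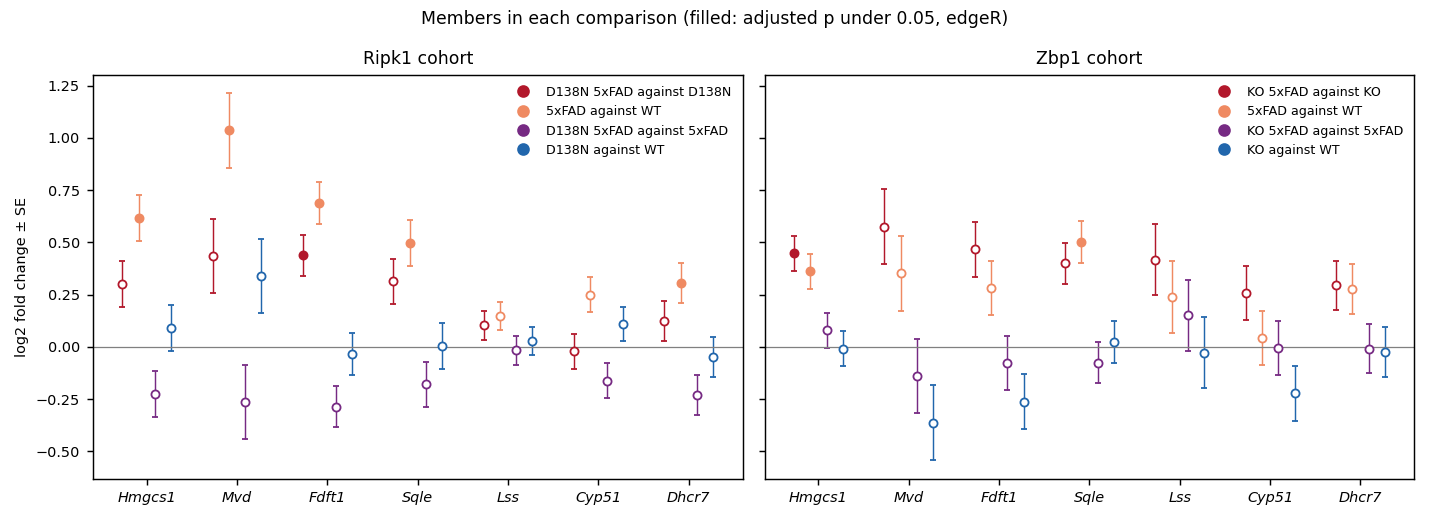
Log2 fold change ± SE (edgeR, y axis) of each member (x axis) in the 4 comparisons of each cohort, filled where adjusted p is under 0.05. Points of D138N 5xFAD against 5xFAD lie below 0 for all 7 members (median -0.23), and those of KO 5xFAD against 5xFAD scatter about 0.

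In the Ripk1 cohort 5xFAD had the highest mean for every member, for example 311 ± 61.2 CPM for Hmgcs1 (SD, n = 3), where D138N 5xFAD had 266 ± 12.9, D138N 216 ± 17.5 and WT 203 ± 7.5. The D138N and WT libraries overlapped for every member, and for Cyp51 and Dhcr7 D138N 5xFAD overlapped D138N as well. Cyp51 differed in order, with 62.1 ± 4.21 CPM in D138N 5xFAD, under the 63.1 ± 3.85 of D138N and above the 58.4 ± 2.47 of WT. In the Zbp1 cohort the means of KO 5xFAD and 5xFAD lay above those of KO and WT for every member. Hmgcs1, for example, had 272 ± 11 and 257 ± 18.1 CPM against 199 ± 13.6 in KO and 200 ± 2.75 in WT. For Cyp51 the WT mean of 60.7 ± 9.71 CPM was close to 61.9 ± 8.65 in KO 5xFAD and 62.2 ± 6.16 in 5xFAD. KO 5xFAD and 5xFAD overlapped for all 7 members, and 5xFAD overlapped WT for all but Hmgcs1 and Sqle.

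Genes around the pathway were counted against the share of all genes called in 5xFAD against WT, which was 8.11% higher and 8.02% lower in the Ripk1 cohort, and 3% higher and 0.127% lower in the Zbp1 cohort. Of 7 genes of SREBP processing none was called in 5xFAD against WT of the Ripk1 cohort by edgeR (3 had an unadjusted p under 0.05, and DESeq2 called 2), and 1 rose in the Zbp1 cohort. That gene was Srebf1, which codes for SREBP-1, with 135, 108 and 96.5 CPM in 5xFAD and 67.5, 73.1 and 78 CPM in WT (log2 fold change 0.63 ± 0.11, adjusted p = 0.00459, edgeR). Srebf2, the gene of SREBP-2, was called in neither cohort, with log2 fold changes of 0.093 ± 0.062 (Ripk1) and 0.15 ± 0.073 (Zbp1). Insig1 had 0.38 ± 0.12 (adjusted p = 0.0517, edgeR) and 0.15 ± 0.14. RNA level says nothing of the cleavage that activates these factors.

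Uptake and lysosomal release had 4 of 11 genes higher and 1 lower in 5xFAD against WT of the Ripk1 cohort, and 2 higher in the Zbp1 cohort. The 1 of 11 lower is near the 8.02% of all genes. Npc2, which hands cholesterol on inside lysosomes, rose in both cohorts, by 1.29 and 1.28 on the log2 scale, and Lipa, the acid lipase that frees cholesterol from its esters, rose in the Zbp1 cohort by 0.58. Stard4, a sterol carrier, rose in the Ripk1 cohort by 0.56 and had 0.56 in the Zbp1 cohort (adjusted p = 0.0571, edgeR). Mylip, a ubiquitin ligase that marks lipoprotein receptors for degradation, rose in the Ripk1 cohort by 0.38, and Vldlr, a receptor for lipoproteins with apolipoprotein E, fell by 0.30.

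Efflux, storage and turnover had 3 of 11 genes higher and 1 lower in the Ripk1 cohort, and 3 higher in the Zbp1 cohort. Apoe, which codes for apolipoprotein E, had 2078, 2675 and 2402 CPM in 5xFAD and 1073, 1076 and 1112 CPM in WT of the Ripk1 cohort (log2 fold change 1.13 ± 0.13). In the Zbp1 cohort Apoe rose by 1.03. Ch25h, which makes a hydroxylated sterol that restrains SREBP processing, was scarce, with 2.42, 3.59 and 3.585 CPM in 5xFAD and 0.188, 0.289 and 0.2205 CPM in WT of the Ripk1 cohort (log2 fold change 3.76 ± 0.40, adjusted p = 3.06e-05, edgeR). Abca1, the efflux pump, rose in the Zbp1 cohort by 0.81, with 0.081 in the Ripk1 cohort. Lcat, which esterifies cholesterol on lipoproteins, rose in the Ripk1 cohort by 0.51, and Abcg4, a sterol transporter, fell by 0.27. Soat1, which esterifies cholesterol for storage, rose in the Zbp1 cohort by 0.48. Of 9 fatty acid genes linked to SREBP, Fads2, a desaturase, rose by 0.26 and Elovl6, an elongase, fell by 0.30 on the log2 scale in the Ripk1 cohort, 1 of 9 in each direction and so near the 8.11% and 8.02% of all genes, and none was called by edgeR in the Zbp1 cohort (4 had an unadjusted p under 0.05, and DESeq2 called 0).

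**Figure D4:**
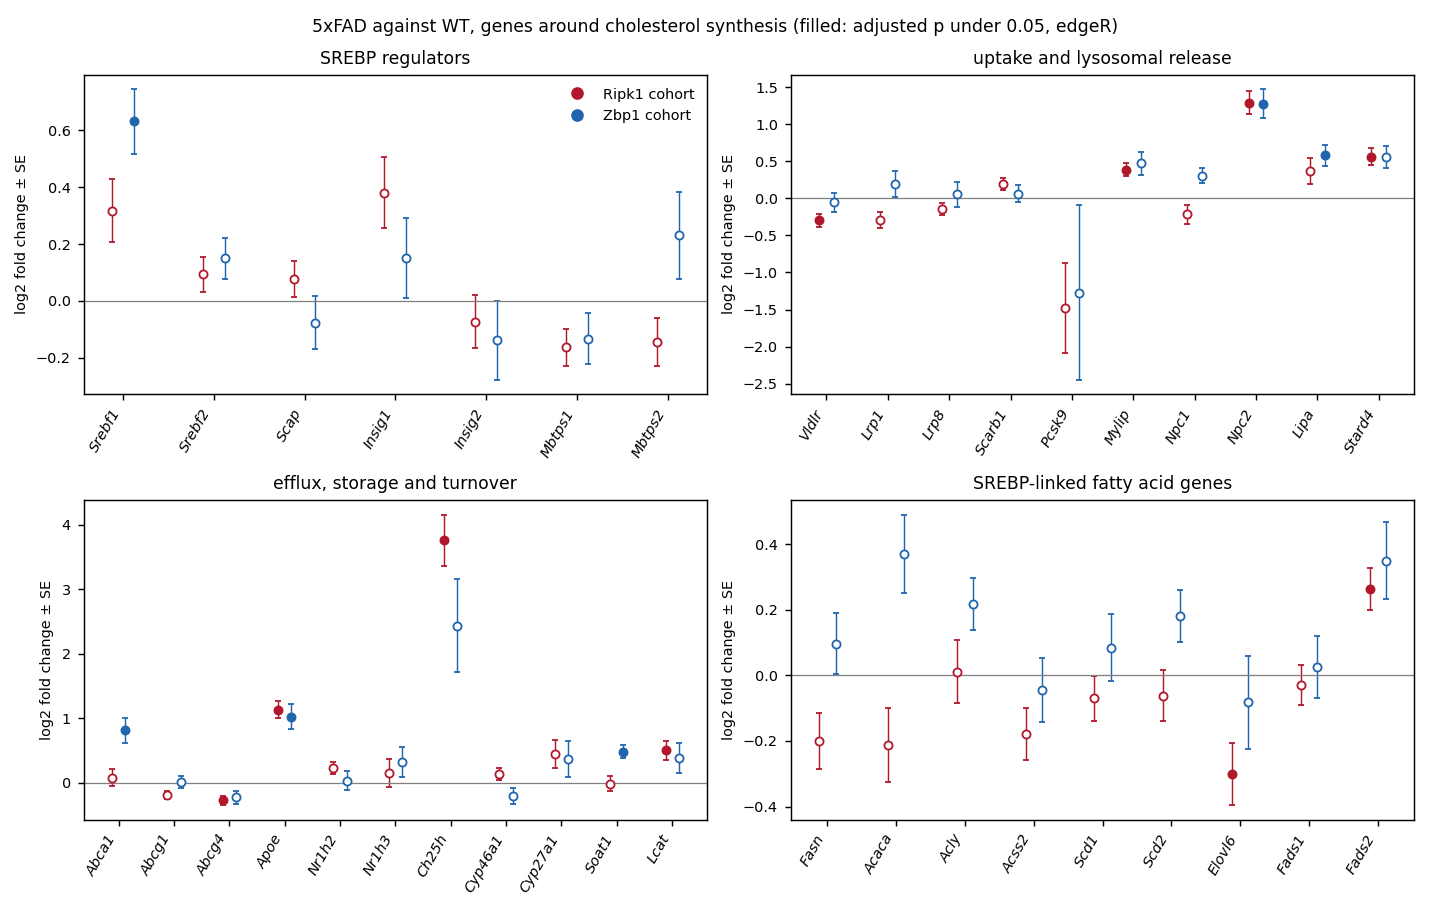
Log2 fold change ± SE (edgeR, y axis, scaled per panel) of 5xFAD against WT for genes around cholesterol synthesis (1 listed gene is not drawn), Ripk1 cohort beside Zbp1 cohort, filled where adjusted p is under 0.05. Npc2 and Apoe are filled in both cohorts, at 1.29 and 1.13 in the Ripk1 cohort.

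Markers of glia moved along with the members in some comparisons. In 5xFAD against WT 8 of 8 microglia markers rose in the Ripk1 cohort and 7 of 8 in the Zbp1 cohort, and their summed level was 844 to 905 CPM in 5xFAD against 227 to 321 in WT of the Ripk1 cohort, and 768 to 1372 in 5xFAD against 281 to 337 in WT of the Zbp1 cohort. Astrocyte markers had 4 of 7 higher in each cohort, with 1 lower in the Ripk1 cohort. Their sums were 6586 to 6988 CPM in 5xFAD against 5713 to 7650 in WT of the Ripk1 cohort, and 7171 to 10750 in 5xFAD against 4934 to 6955 in WT of the Zbp1 cohort. Oligodendrocyte markers had 4 of 7 higher in the Ripk1 cohort and none by edgeR in the Zbp1 cohort (3 at an unadjusted p under 0.05, 1 by DESeq2), with sums of 6351 to 7913 CPM in 5xFAD against 4893 to 5737 in WT (Ripk1) and 6423 to 6761 in 5xFAD against 4648 to 6682 in WT (Zbp1). No listed marker of these 3 cell types was at 0 throughout a group, and their part in the members' results was not tested.

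On the mutant backgrounds the same marker lists were counted. Of all genes tested, 3.12% rose in D138N 5xFAD against D138N and 11.3% did not overlap upwards. In KO 5xFAD against KO these shares were 1.18% and 10.8%. In D138N 5xFAD against D138N 7 of 7 oligodendrocyte markers rose (sums 6780 to 8917 CPM in D138N 5xFAD against 4318 to 5373 in D138N), with 6 of 8 microglia markers (769.5 to 855 CPM in D138N 5xFAD against 277 to 294 in D138N) and 3 of 7 astrocyte markers (7136 to 8350 CPM in D138N 5xFAD against 5655 to 6665 in D138N). Among the members 1 of 7 was called there and 5 of 7 did not overlap. In KO 5xFAD against KO 5 of 8 microglia markers rose, with a median of 1.14 over the 8 (537 to 674 CPM in KO 5xFAD against 239 to 258.5 in KO), and 2 of 7 astrocyte markers (7750 to 8905 CPM in KO 5xFAD against 5900 to 6537 in KO). There 0 of 7 oligodendrocyte markers were called (sums 4657 to 5795 CPM in KO 5xFAD against 5110 to 5513 in KO, none at an unadjusted p under 0.05, none by DESeq2). Among the members 1 of 7 was called there and 7 of 7 did not overlap. In D138N 5xFAD against 5xFAD all 8 microglia markers had negative values, as the members did, with a median of -0.19 (none called by edgeR, 1 at an unadjusted p under 0.05, none by DESeq2). The members' median of -0.23 there moved to -0.053 without 5xFAD 1. Astrocyte markers had 5 of 7 negative (median -0.115, none called by edgeR, 1 at an unadjusted p under 0.05, 1 by DESeq2). Oligodendrocyte markers had 6 of 7 positive (median 0.124, none called by edgeR, 1 at an unadjusted p under 0.05, none by DESeq2). In KO 5xFAD against 5xFAD all 8 microglia markers had negative values with a median of -0.90 (none called by edgeR, 8 at an unadjusted p under 0.05, 5 by DESeq2), where the members' median was -0.008 (-0.073 to 0.039 with 1 library left out). Astrocyte markers had 6 of 7 negative there (median -0.224, none called by edgeR, 4 at an unadjusted p under 0.05, 1 by DESeq2). Oligodendrocyte markers had 7 of 7 negative (median -0.293, none called by edgeR, 3 at an unadjusted p under 0.05, none by DESeq2).

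Over the 24 hippocampal libraries, with log2 CPM centred on the cohort mean, the members followed one another to different degrees. Hmgcs1 correlated with the mean of the other members at r = 0.938 and Sqle at 0.897, but Cyp51 at 0.61 and Lss at 0.562. After genotype means were also removed these were 0.818, 0.717, 0.349 and 0.19. Among 20680 genes the 5 most like the members' mean were Acat2 (r = 0.912), Sox9 (0.907), Msmo1 (0.906), Ehbp1l1 (0.9) and Nsdhl (0.899). Acat2, Msmo1 and Nsdhl belong to the same pathway, and Sox9 is a transcription factor of astrocytes and one of their markers here. After genotype means were removed their values were 0.788 for Acat2, 0.62 for Sox9, 0.681 for Msmo1, 0.704 for Ehbp1l1 and 0.591 for Nsdhl. Ranks 6 to 25 came close behind, from r = 0.898 for Thy1, whose promoter drives the transgenes, to 0.882 for Tlr1, a Toll-like receptor. Of those ranks only Stard4 (0.885) stood in a list of genes of or around the pathway, so the likeness was not particular to it. All points share the same libraries and the 5xFAD contrast, so these values describe likeness only. 5xFAD 1 of the Ripk1 cohort, the highest of its genotype for 7 of 7 members, was kept throughout. The values were not recomputed without that library, so its part in them was not tested.

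ZBP1 immunoprecipitates were compared with their input with 1 library each, so there is no replicate check and no test. The members had 7 to 71 reads per library, and intervals (exact binomial, 95%) cover counting error only. In 5xFAD the ratio of immunoprecipitate to input CPM was 0.391 for Fdft1 (interval 0.181 to 0.779) and 0.405 for Mvd (0.147 to 0.968), the lowest, and 0.896 for Cyp51 (0.551 to 1.44), the highest. In WT it was 0.582 for Sqle (0.273 to 1.16), the lowest, and 1.13 for Lss (0.726 to 1.76), the highest. The median ratio over genes with at least 20 reads in immunoprecipitate and input together was 0.747 in 5xFAD and 0.878 in WT. In 5xFAD 2 of 7 members lay at least 2-fold lower in the immunoprecipitate, where 14.4% of genes did, and 0 of 7 in WT, where 6.13% did. When CPM was computed over gene entries without repeat families, Fdft1 was at 0.504 and Mvd at 0.521 in 5xFAD, so none passed 2-fold. That scale shifts the ratios of all genes alike, and the median and share of all genes were not recomputed on it. No member had a ratio of 2 or more in either.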

How the data were processed

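For each hippocampal cohort the authors deposited a table of counts, whole reads per Ensembl gene ID, and for the ZBP1 immunoprecipitation a table of counts per gene symbol or repeat family. HISAT2, DESeq2 (1.42.1) and edgeR (4.0.16) stand in the submitters' processing notes, beside the builds mm10 (GRCm38) and mm39 (GRCm39), with no role for each. Counting options and strand use were not given in the sources used here. Where genes overlap, their reads may be mixed. The authors also deposited comparison tables with log2 fold changes and p-values per gene. Groups came from the sample labels. Since these name no animal for a library, the p-values reflect variation among the libraries, which may be technical.

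The rest was computed with edgeR 4.0.16, DESeq2 1.42.0 and limma 3.58.1 under R 4.3.3. Of 55487 gene IDs 55141 matched a symbol. One edgeR model per cohort took all 12 libraries (TMM, filterByExpr by genotype, quasi-likelihood), leaving 21376 genes for Ripk1 and 21274 for Zbp1, and 22565 in a model of all 24. P-values were adjusted over all genes tested and called under 0.05, and SE is the size of the log2 fold change over the square root of F. CPM were scaled by TMM within a cohort, except those of Fos, and CPM of the immunoprecipitation used all entries. No pair of same-genotype libraries matched within counting noise (chi-square over its degrees of freedom at least 7.8). Alternatives were median-of-ratios size factors, no filter, DESeq2, a replicate block, the compared genotypes alone and each library left out. The fit was tested on simulated counts.

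The members and lists were chosen with earlier results of these data known. Named from the lists were genes called in 5xFAD against WT in either cohort, at most 4 per list by size, plus Srebf2 and Insig1, and the 5 genes most like the members. Mvk, Pmvk, Fdps, Mylip, Vldlr, Abcg4, Soat1, Fos, Thy1 and Tlr1 were named after their values were seen. One listed gene is not reported here.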

Additional observations from a re-analysis of the deposited data

How the results depend on the processing

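Under median-of-ratios size factors the 47 values recomputed kept their direction and their side of the threshold, and the count of members called was equal in all 11 comparisons. Without the filter on low counts, D138N 5xFAD against D138N called 3 members (Hmgcs1, Sqle and Fdft1) and KO 5xFAD against KO called 2. DESeq2 called 3 members in KO 5xFAD against KO, and 1 of the 13 other synthesis enzymes in Zbp1-cohort 5xFAD against WT, where edgeR called 0. With the compared genotypes fitted alone, 5 members were called in KO 5xFAD against KO and 0 in Zbp1-cohort 5xFAD against WT. The number of all genes called also moved: Zbp1-cohort 5xFAD against WT gave 665, but 1034 by DESeq2 and 339 with the genotypes alone, and D138N 5xFAD against 5xFAD gave 78, but 278 by DESeq2 and 14 to 673 with a library left out. KO 5xFAD against 5xFAD gave 0, but 151 by DESeq2 and 498 without the filter. KO against WT gave 0, but 94 without the filter.

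Deviations of same-numbered libraries correlated at r -0.358 to 0.39 over 12 pairs in the Ripk1 cohort (4 over 0.1) and at 0.002 to 0.564 over 12 in the Zbp1 cohort (7 over 0.1, all positive). In 8 comparisons 22 of 48 libraries correlated best with their own number, 14 of 24 in the Zbp1 cohort. No comparison had all 3 pairs over 0.1, so the main fits did not pair the samples by number. In KO against WT 5 of 6 libraries matched their own number best. The replicate block gave 41 genes instead of 0 in KO 5xFAD against 5xFAD. Whether same-numbered libraries of the Zbp1 cohort shared handling was not tested. With the replicate block 2 members, Hmgcs1 and Fdft1, were called in KO 5xFAD against KO instead of 1, and no other count of members moved by more than 1.5 times.

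With each library left out, 0 to 1 members were called in D138N 5xFAD against D138N and in KO 5xFAD against KO, 0 to 2 in Zbp1-cohort 5xFAD against WT (where 0 to 1 of the other synthesis enzymes were), and 4 to 5 in Ripk1-cohort 5xFAD against WT. Some values changed sign, most of them near 0. Where only the lowest and the highest member are given above, only those were followed, so this account is not complete. In KO 5xFAD against 5xFAD 2 of 7 members were positive with all libraries and 5 of 7 without 5xFAD 1. Lss ranged from -0.0674 to 0.0315 in D138N 5xFAD against 5xFAD, from -0.0954 to 0.004 in the interaction with D138N, from -0.0136 to 0.3716 in Zbp1-cohort 5xFAD against WT, and from -0.2317 to 0.1495 in the difference between cohorts. Cyp51 ranged from -0.0663 to 0.0404 in D138N 5xFAD against D138N and from -0.0349 to 0.1747 in Zbp1-cohort 5xFAD against WT. Dhcr7 ranged from -0.1208 to 0.03 in D138N against WT, Mvd from -0.286 to 0.0035 in KO 5xFAD against 5xFAD, and Sqle from -0.0478 to 0.1209 in KO against WT. The causes were not tested. Each genotype had 3 libraries and each member at least 150 counts in every library, while the immunoprecipitation had 1 library each and 7 to 71 reads per member.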
